A study of Caenorhabditis elegans with 2 samples.

Results

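The 420 peaks described here are the autosomal intergenic peaks of LIN-13 that lie away from promoters, and they make up part of a reproducible set of 2333 peaks. A peak belonged to them when it lay on one of the 5 autosomes, when its summit was farther than 500 bp from every annotated 5' end of a protein-coding transcript and of a tRNA, snoRNA or snRNA gene, and when the summit lay outside the span of all protein-coding genes. The rule used positions only and no measured value. The study was a chromatin immunoprecipitation with sequencing (ChIP-seq) experiment on whole worms, Caenorhabditis elegans, with 2 biological replicates of a single group. All animals were mixed sex L1 larvae, the first larval stage, of the strain OP49, which carries the unc119(ed3) mutation and the insertion wgIs49(lin-13::TY1 EGFP FLAG;unc119), so that both replicates carried tagged LIN-13. The antibody label reads lin-13, the fragment size range was 150 to 350 bp, and the age in hours is not given. The immunoprecipitated material came from whole animals, so a peak can come from any cell type that expresses the tagged protein. No second condition was compared, a control alignment was not analysed here, and no test between samples was possible.

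LIN-13, which has many zinc fingers, belongs to class B of the synthetic multivulva genes (synMuv B), a group of chromatin and transcription regulators that keep vulval and germline genes off in somatic cells, and it is known to act together with the heterochromatin protein HPL-2. In the compact worm genome most transcription factor sites lie close to gene starts, and sites between genes but away from a start are candidates for enhancers, for starts of noncoding RNAs, or for gene starts that the annotation misses. Many worm messages are trans-spliced to a leader, which removes the first part of the transcript, so the true start can lie upstream of the annotated 5' end.

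The sequences at 7 strong peaks are printed here to show where short words that recur in the results stand in them. They were picked from 14 of the strongest peaks because they hold at least 1 of these words, and the other 7 hold none within the same length. Each line gives 151 bp around the summit on the plus strand of ce11, read from the RefSeq copy of WBcel235. Capitals mark the words AGACGCAG (a CG-containing word, here called the CG word), GAGAGAGA (the GA repeat), CACGTG (the E-box) and CCGCCC (the GC box), on either strand. The reverse complement of the CG word reads CTGCGTCT, and neighbouring words may overlap.
lin-13 and C03B8.3, chrIII:7710187-7710337: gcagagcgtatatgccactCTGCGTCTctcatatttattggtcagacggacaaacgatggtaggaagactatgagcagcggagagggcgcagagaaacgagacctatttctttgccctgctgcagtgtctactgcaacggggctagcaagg
nhl-2 and tag-340, chrIII:4899844-4899994: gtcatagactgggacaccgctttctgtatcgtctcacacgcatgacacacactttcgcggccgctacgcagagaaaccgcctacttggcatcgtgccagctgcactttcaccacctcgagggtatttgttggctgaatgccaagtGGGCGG
K12H4.6 and K12H4.5, chrIII:8043898-8044048: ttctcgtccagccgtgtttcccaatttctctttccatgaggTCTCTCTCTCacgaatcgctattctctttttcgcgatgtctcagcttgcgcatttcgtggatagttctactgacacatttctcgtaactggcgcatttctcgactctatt
cutl-22 and cmd-1, chrV:1151425-1151575: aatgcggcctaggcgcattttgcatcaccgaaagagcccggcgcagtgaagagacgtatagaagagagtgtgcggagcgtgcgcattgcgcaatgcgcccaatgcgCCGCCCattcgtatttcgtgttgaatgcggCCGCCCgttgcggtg
T04C4.3 and fnip-2, chrIV:2219581-2219731: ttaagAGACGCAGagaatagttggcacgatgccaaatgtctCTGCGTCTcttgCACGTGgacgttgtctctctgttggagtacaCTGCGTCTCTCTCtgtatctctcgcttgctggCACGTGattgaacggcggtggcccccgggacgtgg
Y17G7B.17 and Y17G7B.18, chrII:12102507-12102657: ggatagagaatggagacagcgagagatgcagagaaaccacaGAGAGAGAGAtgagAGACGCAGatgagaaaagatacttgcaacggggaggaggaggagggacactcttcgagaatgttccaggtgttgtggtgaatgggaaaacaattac
F54F12.1 and Y39E4B.6, chrIII:13061244-13061394: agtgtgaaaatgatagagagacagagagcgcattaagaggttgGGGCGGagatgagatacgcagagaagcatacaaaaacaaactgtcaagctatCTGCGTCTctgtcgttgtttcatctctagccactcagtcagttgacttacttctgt
The peak between T04C4.3 and fnip-2 held the CG word, the GA repeat and the E-box in 1 window. The peak between K12H4.6 and K12H4.5 held only the GA repeat of these words, and the peaks between nhl-2 and tag-340 and between cutl-22 and cmd-1 held only the GC box.

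The distal intergenic peaks were on the whole weaker than promoter peaks, although a few of them were among the strongest peaks of the genome. Their deposited signal, the authors' score of a peak on a scale that is not stated, had a median of 73.8 and ran from 48.2 to 528.0, against a median of 84.1 for the 1164 autosomal peaks within 500 bp of a protein-coding 5' end (promoter peaks) and a median of 72.6 for the 245 peaks inside genes and away from 5' ends. The median distal intergenic peak was stronger than 44.3% of all 2333 peaks (exact 95% interval of the median 39.7% to 48.6%), and the median promoter peak was stronger than 54.2% of them (51.5% to 57.3%). These intervals do not overlap, while that of the peaks inside genes, 36.2% to 46.4%, overlaps that of the distal intergenic peaks. Of the 10 strongest peaks 2 were distal intergenic and 8 were promoter peaks, and 236 of the 420 (56.2%) had a signal at or below the median of all peaks. The exact intervals given here and later cover counting error only, and neighbouring peaks are not independent of each other.

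**Figure D1:**
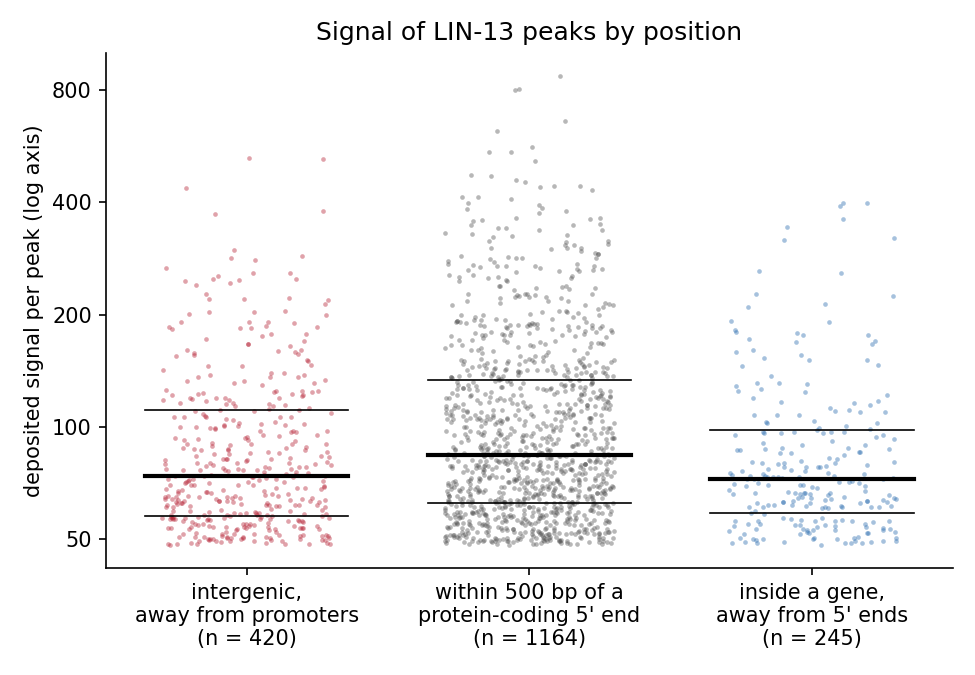
Deposited signal (log axis) of each autosomal peak, with the 420 distal intergenic peaks on the left, the 1164 promoter peaks in the middle and the 245 peaks inside genes on the right. Thick lines are medians (73.8, 84.1 and 72.6) and thin lines are quartiles; the 3 groups overlap over most of their range.

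Most of these peaks were found in each replicate, less often than the peaks as a whole. Both replicate lists held a call, with a summit no more than 100 bp away, for 381 of the 420 peaks (90.7%, exact 95% interval 87.5% to 93.3%), against 93.7% of all 2333 peaks and 96.1% of promoter peaks (94.8% to 97.1%). Replicate 1 lacked such a call more often, since 391 peaks (93.1%) had one there and 410 (97.6%) had one in replicate 2. The same direction held for all 2333 peaks, with 95.8% in replicate 1 and 97.7% in replicate 2. A call with a q-value under 0.05 in both replicates was present for 304 peaks (72.4%), against 77.2% of all peaks. A call among the 2333 strongest of each replicate was present for 258 peaks (61.4%), against 67.1% of all peaks. Because replicate lists of 30000 calls reach far into weak signal, a call at the bottom of a list counts as much here as one at the top: the matched ranks ran from 10 to 24128 in replicate 1 and from 7 to 29093 in replicate 2. Across the 381 peaks called in both, which share the pooled threshold of the reproducible set, Spearman's correlation between the replicates' signals was 0.58. Across all 2185 peaks called in both it was 0.68. The strongest peaks ranked high in both lists, but they were picked by the pooled signal, which draws on both replicates.

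**Figure D2:**
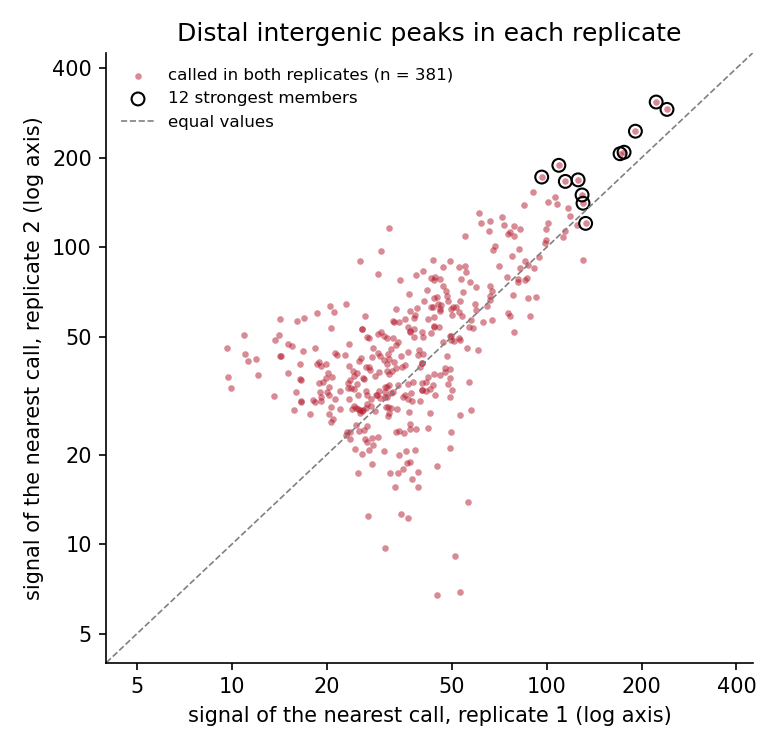
Signal of the nearest call in replicate 1 (x) and in replicate 2 (y), both on log axes, for the 381 distal intergenic peaks called in both. Circles are the 12 strongest peaks, which lie at the upper right, and the dashed line marks equal values; each replicate list has its own signal scale.

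The 12 strongest distal intergenic peaks ranked between 9 and 123 of the 2333 and were spread over chromosomes I, III, IV and V, with 7 of them on chromosome III. The strongest had signals of 240.7 in replicate 1 and 290.7 in replicate 2, and 528.0 in the pooled list, and lay 771 bp upstream of lin-13 itself, which points away from it. The next had signals of 222.4, 307.8 and 522.1 in the same order, and lay between the divergent genes nhl-2, a TRIM-NHL protein that works with microRNAs, and tag-340, 589 bp from the start of tag-340. Both replicates ranked these peaks among their 15 strongest calls.

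Where 3 signals follow each other they are those of replicate 1, replicate 2 and the pooled list. A peak with signals of 191.1, 245.5 and 437.3 lay 793 bp upstream of cgh-1, a DEAD-box RNA helicase of germ granules, and 123 bp past the 3' end of C07H6.9. The peak between K12H4.6 and K12H4.5 (175.9, 208.6 and 379.7) and the peak between cutl-22, a cuticlin-like gene, and cmd-1, which encodes calmodulin (170.8, 206.2 and 372.2), differed in distance. The K12H4.5 peak was 514 bp from a 5' end and the cmd-1 peak 4771 bp from one, inside the annotated noncoding RNA linc-128. The strong peaks were therefore found both just beyond the promoter limit and several kilobases from any gene start.

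Other flanks of strong peaks included regulators of chromatin and of the hypoxia response. A peak of 125.7 in replicate 1, 168.4 in replicate 2 and 286.6 in the pooled list lay 911 bp upstream of cbp-1, the worm CBP/p300 histone acetyltransferase. A peak of 96.4, 172.1 and 259.5 lay 1981 bp upstream of hif-1, the hypoxia-inducible factor, and a weaker one of 43.9, 58.4 and 108.8 lay in the same interval 3476 bp from hif-1. A peak of 132.8, 120.2 and 258.0 lay between the convergent 3' ends of nlp-40, a neuropeptide gene, and rcor-1, a CoREST homologue. That peak was the only 1 of the 12 in a convergent interval and the only one whose value in replicate 1 exceeded that in replicate 2.

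The remaining peaks of the 12 strongest were flanked by mtm-3, a myotubularin phosphatase, and xbx-5 (pooled signal 299.0), by T04C4.3 and fnip-2 (283.5), by pdi-3, a protein disulfide isomerase, and ubql-1, a ubiquilin (280.8), and by nhr-20, a nuclear hormone receptor, and F43C1.7 (266.5). The interval between nhr-20 and F43C1.7 held a second peak, with signals of 99.6 in replicate 1, 105.4 in replicate 2 and 205.2 in the pooled list, 4618 bp upstream of nhr-20.

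Around lin-13 the peaks stand at the gene that the transgene carries. Besides the peak at 771 bp, a peak with signals of 77.6 in replicate 1, 93.1 in replicate 2 and 167.1 in the pooled list lay 1590 bp upstream of lin-13 (WBGene00003002, chromosome III, 7700338 to 7709491, minus strand), and another with 74.98, 79.6 and 155.1 lay 9030 bp upstream, between C03B8.3 and ncl-1. The files do not separate fragments of the native locus from those of wgIs49, and the part of the extra copies in these signals was not tested. Without these 3 peaks 417 remained, and their number on arms and the word shares given later stayed within the intervals of the full set.

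The density of distal intergenic peaks differed between autosomes, and in the full set it was lower on arms. Their number was 85 on chromosome I, 87 on II, 105 on III, 79 on IV and 64 on V. Relative to the sequence that meets the position rule, 23.0 Mb in all or 27.9% of the autosomes, this was 31.9 peaks per Mb on III, 25.5 on I, 20.1 on II, 13.8 on IV and 10.2 on V. The promoter peaks per 1000 annotated 5' ends followed the same order of chromosomes, with 66.7 on III, 62 on I, 45.2 on II, 39.9 on IV and 30.03 on V.

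On the arms, the outer 25% at each end of an autosome, lay 186 of the 420 peaks (44.3%, exact 95% interval 39.5% to 49.2%), against 52.7% of the sequence that meets the rule. The density was 15.4 peaks per Mb on arms and 21.5 per Mb in centres, a ratio of 0.713 (0.585 to 0.868). For peaks above the median signal the ratio was 0.804 (0.595 to 1.09), and with summits in other annotated genes left out it was 0.827 (0.671 to 1.02), so in both the interval includes equal densities. Each of the 5 autosomes had the lower density on its arms: 23.9 per Mb on the arms against 27.3 in the centre of I, 15.8 on the arms against 24.8 in the centre of II, 29.6 on the arms against 34.1 in the centre of III, 11.6 on the arms against 16.6 in the centre of IV and 7.06 on the arms against 13.4 in the centre of V. The exact 95% interval of the arm share held the share of the sequence on I, III and IV, and lay below it on II and V. On II it did so narrowly, reaching 51.3% against 51.4%. Worm autosome arms are known to be rich in repeats and in H3K9 methylation and to recombine more than centres. With each autosome cut into 10 bins of equal length, the density summed over autosomes was highest just past the middle, in bin 6 at 28.4 per Mb, and lowest in bin 1, at 12.6 per Mb. The strength did not follow this pattern, with a median signal of 76.6 on arms and 72.8 in centres.

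The strongest peak of each arm and centre is given here, whatever its size. On II the strongest arm peak (106.4 in replicate 1, 147.4 in replicate 2, 254.3 pooled) lay between Y17G7B.17 and Y17G7B.18, and the strongest centre peak (101.2, 141.6 and 245.8) between sgn-1 and F07H5.13. On III the strongest arm peak (90.4, 152.9 and 243.9) lay 5877 bp from the start of F54F12.1 in an interval of 15313 bp. In the centre of IV the strongest peak (82.5, 84.8 and 177.3) lay between mif-4, a macrophage migration inhibitory factor homologue, and ipla-6, a phospholipase. In the centre of V it (99.5, 114.7 and 213.2) lay between F58D12.1 and F58D12.3. The other strongest peaks of arms and centres are among the 12 above.

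**Figure D3:**
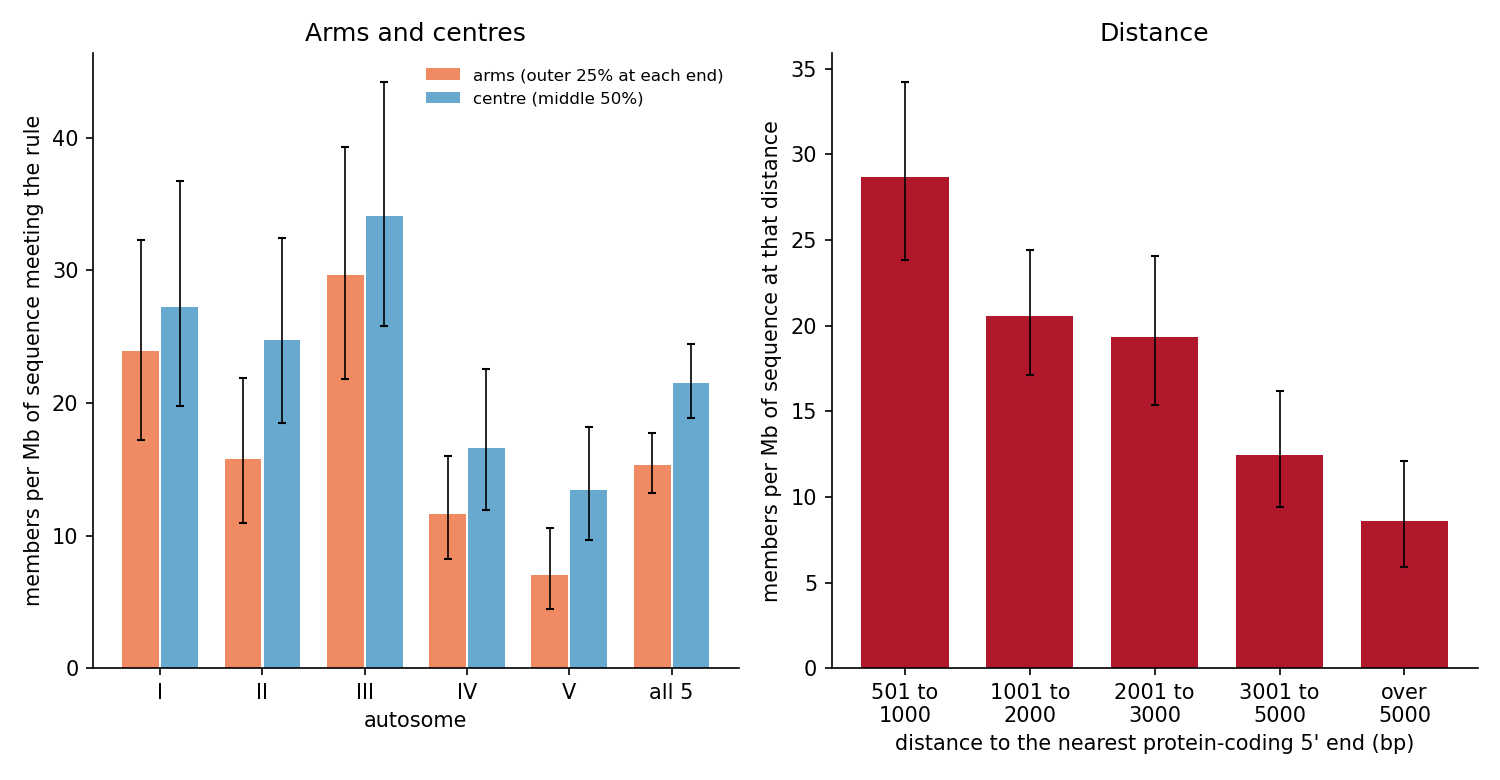
Distal intergenic peaks per Mb of sequence that meets the position rule, for arms and centres of each autosome (left) and by distance to the nearest protein-coding 5' end (right), with exact 95% Poisson intervals. Arms lie below centres on each of the 5 autosomes, 15.4 against 21.5 per Mb over all, and the density is 28.7 per Mb at 501 to 1000 bp and 8.61 per Mb beyond 5000 bp.

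Peaks thinned out with distance from gene starts over the whole range. The median distance to the nearest protein-coding 5' end was 1539 bp, with quartiles of 863 and 2722 bp and a maximum of 11561 bp. Between 501 and 1000 bp there were 123 peaks, or 28.7 per Mb of intergenic sequence at that distance. This was 20.5 per Mb at 1001 to 2000 bp (127 peaks), 19.3 at 2001 to 3000 bp (81 peaks), 12.5 at 3001 to 5000 bp (56 peaks) and 8.61 beyond 5000 bp (33 peaks). Intergenic promoter peaks stood at 195.7 per Mb within 250 bp of a 5' end and at 91.0 per Mb at 251 to 500 bp. Distance was almost unrelated to strength, with a Spearman correlation of -0.048 between signal and distance across the 420 peaks.

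At the limit itself, the 2 nearest peaks beyond 500 bp lay at 502 bp, between K12C11.7 and smo-1, the SUMO gene (60.6 in replicate 1, 44.9 in replicate 2, 106.0 pooled), and at 512 bp, between sms-3 and Y22D7AL.6 (30.7, 33.8 and 59.8). The nearest intergenic peaks short of it lay at 496 bp, between K08F11.1 and fbxb-78 (20.8, 23.8 and 48.6), and at 497 bp, between hpo-38 and hpo-29 (60.3, 43.3 and 102.7). These 2 peaks on each side are too few to compare the sides. Over wider ranges, the median pooled signal of intergenic peaks was 89.55 at 251 to 500 bp and 77.76 at 501 to 1000 bp.

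Intervals between convergent genes held few of the peaks. Of the 420, 250 (59.5%) lay in tandem intervals, 143 (34.0%) between divergent genes and 27 (6.43%, exact 95% interval 4.28% to 9.22%) between convergent genes, against 54.3%, 31.0% and 14.6% of the sequence that meets the rule. The density was 8.07 per Mb in convergent intervals and 20.1 per Mb in divergent ones. A protein-coding 3' end lay within 500 bp of 73 peaks (17.4%, 13.9% to 21.3%), against 14.8% of the sequence.

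The peaks fell in 369 of 9640 intergenic intervals with sequence that meets the rule. In 329 of these intervals there was 1 peak, in 30 there were 2, and in 10 there were 3 or more. The interval between sptf-3, an Sp1-family zinc finger gene, and C01A2.9 held 3 peaks with pooled signals of 78.2 to 200.5, and that between mstr-1 and nars-1 held 3 of 48.5 to 159.7. Another distal intergenic peak lay within 2000 bp of 65 peaks (15.5%).

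Of 13 families of flanking genes, those of chemoreceptors and of lectin or F-box proteins were next to few of the peaks. A flanking gene is the nearest coding gene on either side at any distance, so another gene can be closer to the peak. Chemoreceptor genes flanked 11 peaks (2.62%, exact 95% interval 1.31% to 4.64%), against 10.8% of the sequence that meets the rule. C-type lectin and F-box genes flanked 3 peaks (0.714%, 0.147% to 2.07%), against 4.56% of the sequence. The strongest peak with a chemoreceptor flank (118.5 in replicate 1, 127.0 in replicate 2, 240.8 pooled) was 12192 bp past srw-60 and 2564 bp upstream of nhr-88, so its nearer gene was a nuclear hormone receptor. The next in this family lay 14087 bp from srbc-2 and 2161 bp from T20D4.15 (116.1 pooled). Another lay between sre-52 and sop-2 (97.2 pooled). Of those flanked by F-box genes, 1 (68.7) lay 9512 bp from fbxb-78 and 2733 bp from K08F11.1. The other (51.6) lay 6870 bp from fbxc-48 and 170 bp from rfip-2. The peak with a lectin flank (64.1) lay 458 bp from clec-78 and 100 bp from hlh-30. The 1 peak by a MATH or BTB gene was by bath-44 (49.6), 0.238% of the peaks (0.00603% to 1.32%) against 0.978% of the sequence, which the interval holds. Chemoreceptor genes are known to lie largely on arms and in duplicated clusters, and the part of either in their low count was not tested.

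For 3 families of transcription factor genes the exact interval held the share of the sequence. Nuclear hormone receptor genes flanked 12 peaks (2.86%, 1.49% to 4.94%) against 3.58% of the sequence, and the strongest were the 2 by nhr-20 and the 1 by nhr-88 given above. The bHLH, T-box, GATA, forkhead and SOX genes flanked 6 peaks (1.43%, 0.526% to 3.08%) against 1.84%, led by the 2 by hif-1 and 1 by egl-27 (85.0 pooled), a GATA-type regulator. Homeobox and PAX genes flanked 4 peaks (0.952%, 0.260% to 2.42%) against 2.12%. The strongest of these lay by ceh-20, a PBC-class homeobox gene, with 107.2 pooled and 44.9 in replicate 1. The nearest call within 100 bp in replicate 2 had only 6.76, and whether a stronger call lay farther off was not tested. The other homeobox and PAX peaks lay by ceh-24 (82.4 pooled), by npax-1 and nhr-21 (77.7 pooled, with no call within 100 bp in replicate 2) and 12869 bp from ceh-58 (57.6 pooled).

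Neuropeptide and insulin genes flanked 4 peaks (0.952% against 1.96%), including that by nlp-40 and a peak of 124.6, 118.7 and 248.8 by the insulin-like gene ins-37. Another (62.8) lay 3696 bp from flp-14 and 195 bp from cox-5A. Signalling genes of the Wnt, Notch, Hedgehog-like, TGF-beta and EGF pathways flanked 2 (0.476% against 1.72%), by wrm-1, a beta-catenin (102.6), and by ptc-1, a Patched homologue (59.1). Cuticle collagens flanked 2 (0.476% against 1.14%), by col-42 (53.7) and col-50 (55.0). Ribosomal protein genes flanked 2 (0.476% against 0.429%), both in the interval of gei-8 and rpl-21 (87.8 and 57.3). With a distance limit of 250 bp they flanked 4.99% of the peaks (3.48% to 6.91%), and the share of sequence at that limit was not computed. A histone gene flanked 1 (0.238% against 0.169%), by his-72 (61.7). At the 500 bp limit the exact intervals of these shares held that of the sequence, except for the signalling genes, whose interval of 0.058% to 1.71% fell just short of it.

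Heterochronic and synMuv genes had more peaks than their share of the sequence, on counts of 5 and 4. Heterochronic genes, which time larval development, flanked 5 peaks (1.19%, exact 95% interval 0.388% to 2.76%) against 0.193% of the sequence. A peak of 43.7 in replicate 1, 77.8 in replicate 2 and 121.6 pooled lay 1453 bp upstream of lin-41, the let-7 target, and a peak of 45.9, 37.1 and 83.5 lay 558 bp upstream of lin-28. The other 3 lay together beyond the 3' end of lin-41, in the interval it shares with cbl-1, with pooled signals of 72.5, 58.5 and 57.3. Thus 4 of the 5 have lin-41 as a flank. The peak of 58.5 was 18 bp past cbl-1 and 3854 bp from lin-41. That of 72.5 was also nearer to cbl-1, and that of 57.3 was nearer to lin-41. SynMuv genes flanked 4 peaks (0.952%, 0.260% to 2.42%) against 0.212%, but without the peaks around lin-13 the share was 0.480% (0.058% to 1.72%), an interval that holds that of the sequence. The 2 strongest were those upstream of lin-13, the gene on the transgene. Another (67.6) lay 585 bp past gfl-1 and 1843 bp upstream of mep-1, a zinc finger member of the NuRD-like MEC complex. The last (56.5) lay 326 bp past the 3' end of lin-9, a DREAM subunit.

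Annotated noncoding RNAs other than microRNAs were next to many of the peaks, and pseudogenes and piRNA genes to few. A summit lay inside, or within 500 bp of the 5' end of, a gene of biotype ncRNA for 77 peaks (18.3%, exact 95% interval 14.7% to 22.4%), against 6.63% of the sequence. This biotype holds short unnamed transcripts, and 37 of the summits lay inside such a gene. With summits inside any other annotated gene left out, the ncRNA share was 10.4% (7.48% to 13.9%). The matching share of sequence, with those gene spans also left out, was not computed, and 6.63% includes them. The strong peak by nhl-2 was 31 bp from the 5' end of the noncoding gene F26F4.14 and inside it, and the peak by pdi-3 and ubql-1 was inside VF15C11L.1. Summits stood on both sides of the noncoding 5' ends, 35 upstream of the nearest one and 42 downstream.

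The lincRNA genes were near 11 peaks (2.62%, 1.31% to 4.64%) against 0.9746% of the sequence. Of these, 7 summits lay inside the lincRNA gene, and with summits inside any other annotated gene left out the share was 1.06% (0.291% to 2.70%). The share of sequence for that setting was likewise not computed. The piRNA genes, which are short Argonaute guides of the germline encoded in clusters on chromosome IV, were near 15 (3.57%, 2.01% to 5.82%) against 9.70%, with 11 of the 15 on IV. Pseudogenes were near 11 (2.62%, 1.31% to 4.64%) against 14.3%. Over all such biotypes together, 109 peaks (26.0%, 21.8% to 30.4%) were near an annotated gene of these kinds, against 30.4% of the sequence, so the kinds differed in direction and their sum hardly did.

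Several of the peaks lay just upstream of microRNA genes that stand alone between coding genes. A microRNA 5' end was within 500 bp of 8 peaks (1.905%, exact 95% interval 0.826% to 3.72%), against 0.332% of the sequence. A peak 132 bp upstream of mir-53 had signals of 38.5 in replicate 1, 80.7 in replicate 2 and 118.0 pooled. A peak 200 bp upstream of mir-80 had 43.6, 62.8 and 106.5, and at 11561 bp was the farthest of the 420 from a protein-coding 5' end. A peak 166 bp upstream of mir-52 had no call within 100 bp in replicate 1, with 66.7 in replicate 2 and 106.4 pooled. A peak 288 bp upstream of mir-228 likewise had no call in replicate 1, with 55.8 in replicate 2 and 76.5 pooled. At 2 of these 4 a call within 100 bp was thus found in replicate 2 alone. Among all reproducible peaks, too, replicate 1 lacked such a call more often than replicate 2. Whether replicate 1 had a call farther off was not tested for these peaks. Across all 420, matching within 200 bp gave calls in both replicates for 97.6%.

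The annotated products of those 4 genes that are best known as the active strand are printed because their genes lie at these peaks, read from RefSeq's annotation of WBcel235, with the seed (bases 2 to 8) in capitals.
mir-52 product a: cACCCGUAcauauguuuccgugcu
mir-53 product a: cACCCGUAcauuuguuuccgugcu
mir-80 product b: uGAGAUCAuuaguugaaagccga
mir-228 product a: aAUGGCACugcaugaauucacgg
The products of mir-52 and mir-53 share the seed ACCCGUA and belong to the mir-51 family, whose members act redundantly in development. The genes of mir-52 and mir-53 lie far apart on chromosome IV. Among the 4 printed products, the seeds of mir-80 and mir-228 differ from ACCCGUA and from each other. A second peak within 500 bp lay 390 bp downstream of the 5' end of mir-52, with 29.3 in replicate 1, 32.8 in replicate 2 and 50.2 pooled. A stronger distal intergenic peak, with 167.0 pooled and its summit at 14033284 of chromosome IV, lay upstream of mir-52 beyond 500 bp.

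The other microRNA genes near a peak were mir-79, with 1 peak 362 bp upstream (31.1, 40.3 and 72.5) and another 375 bp downstream of its 5' end (26.8, 31.8 and 57.3), and the overlapping mir-8186-1 and mir-8186-2, with 1 peak at 359 and 300 bp from their 5' ends (36.2, 34.6 and 63.6). The gene of mir-79 lies in the interval between cbl-1 and lin-41, so these peaks are also counted with the heterochronic genes.

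Words were counted on both strands of windows that reach 100 bp to each side of the summit, and compared with promoter peaks and with 114363 windows of the same length that tile all sequence that meets the position rule. The CG word, which was chosen after it was seen to be frequent in these windows, was in 107 of the 420 (25.5%, exact 95% interval 21.4% to 29.9%), against 13.9% of promoter peaks (11.98% to 16.04%) and 1.33% of the tiled windows. The GA repeat was in 24.0% of them (20.04% to 28.4%), against 7.13% of promoter peaks (5.72% to 8.76%) and 1.72% of tiled windows. The E-box was in 53 (12.6%, 9.60% to 16.2%), against 6.10% (4.79% to 7.63%) and 2.81%. At the peaks inside genes these shares were 23.3%, 23.7% and 15.9%, each within the interval of the distal intergenic peaks.

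None of the other words stood above its share in promoter peaks beyond the exact intervals. The GC box was in 10.2% of the peaks, against 9.36% of promoter peaks and 3.35% of tiled windows, and E2F-like words (TTCCCGCC or TTTCCCGC or TTCGCGCC or TTGGCGCC or TTCCCGCG) were in 6.43%, against 8.42% and 2.64%. The cell cycle homology region (CHR), TTTGAA or TTCGAA, the DREAM element to which LIN-54 is known to bind, was in 38.3% (33.7% to 43.2%), against 54.9% of promoter peaks (52.0% to 57.8%) and 57.7% of tiled windows. The T tract, TTTTTTTT, was in 10.2%, against 17.4% and 25.1%, and the GATA word TGATAA in 12.9%, against 10.1% and 17.5%. The telomere repeat word TTAGGC was in 3.10%, against 6.01% and 5.46%, and the word CTGTTTCA found upstream of piRNA genes in 0.476%, against 0.344% and 3.12%.

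**Figure D4:**
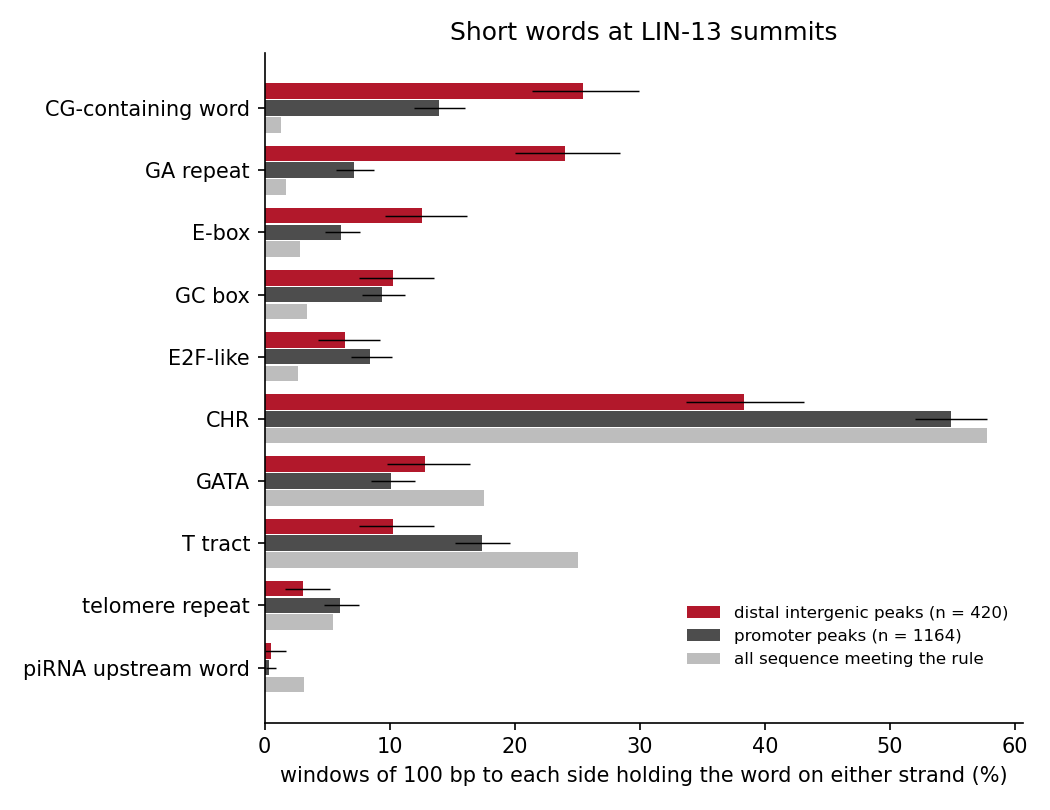
Share of windows, 100 bp to each side of the summit, that hold each word on either strand, for the 420 distal intergenic peaks, the 1164 promoter peaks and the tiled sequence that meets the position rule, with exact 95% intervals for the peaks. The CG word (25.5% against 13.9%) and the GA repeat (24.0% against 7.13%) are more frequent at distal intergenic than at promoter peaks, and the CHR is less frequent (38.3% against 54.9%).

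The windows were richer in G and C than the sequence they lie in, with a median GC content of 44.3%, against 39.8% at promoter peaks and 33.3% in tiled windows. In windows within the quartiles of the distal intergenic peaks, 39.8% to 48.8% GC, the CG word was in 32.0% of 225 such peaks, against 14.1% of 495 promoter peaks and 3.70% of 21384 tiled windows. In the same range the GA repeat was in 26.2%, 9.09% and 3.91%, and the E-box in 13.3%, 6.67% and 5.03%. The GC box was in 7.56%, 9.5% and 7.19% of them, the CHR in 36.4%, 48.7% and 37.2%, and the T tract in 8.89%, 12.3% and 10.1%. For the GC box, the CHR and the T tract, the shares in distal intergenic peaks and in tiled windows thus lay close together within this GC range. The range is broad, and GC content within it was not matched between the sets for any of these words.

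The CG word and the GA repeat often occurred apart. Either was in 172 peaks (41.0%, 36.2% to 45.8%), against 19.1% of promoter peaks and 2.91% of tiled windows, and both were in 36 (8.57%), against 1.98% and 0.147%. The CG word was most frequent in the central 40 bp, where 8.57% of the 420 had it, against 1.43% at 240 bp towards lower coordinates and 0.714% at 240 bp towards higher ones. The GA repeat was spread over about 100 bp on each side of the summit, and the T tract was depleted there, at 2.14% in the central bin and 6.67% at 240 bp on either side.

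**Figure D5:**
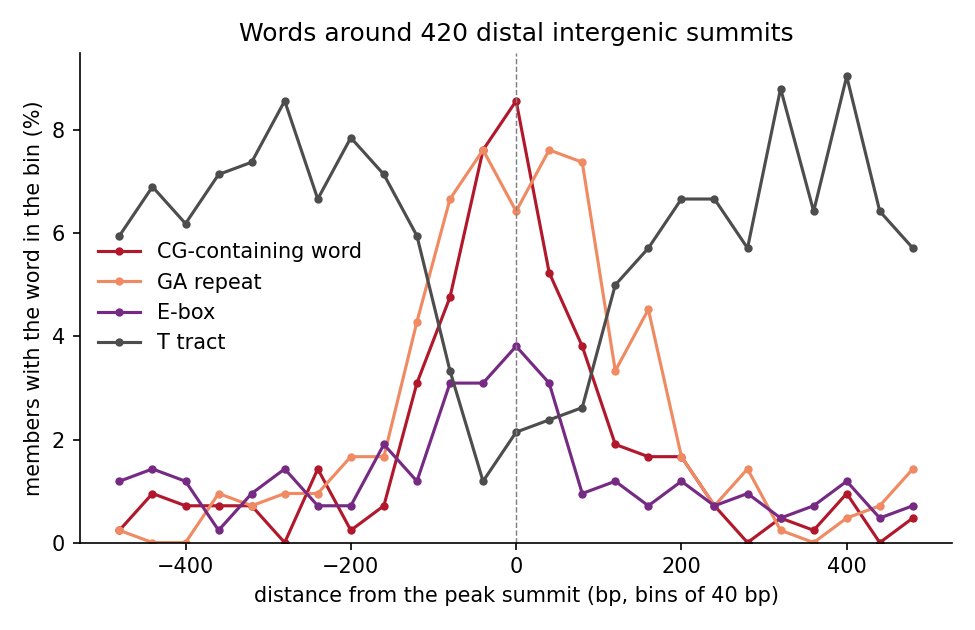
Share of the 420 distal intergenic peaks with each word in bins of 40 bp by distance from the summit, negative towards lower coordinates. The CG word reaches 8.57% in the central bin, the GA repeat is spread over a broader zone, the E-box reaches 3.81% and the T tract drops to 2.14% at the summit.

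Most places with these words had no reproducible peak. Of 1560 places with the CG word in sequence that meets the rule, 109 (6.99%, exact 95% interval 5.77% to 8.37%) had one of the 420 summits within 100 bp, and of 2030 places with the GA repeat 107 (5.27%, 4.34% to 6.33%) had one, against 0.358% of tiled windows. A call of the pooled list of 30000 lay within 100 bp of 22.1% of the CG word places and of 17.9% of the GA repeat places, against 6.08% of tiled windows. The CG word was chosen for its frequency at these same summits. Its higher shares here follow from that choice and are no separate evidence.

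Peaks with the CG word had a median signal of 85.0 and those without it 70.1. Those with the GC box had 104.6 and those without it 72.5, and those with the T tract had 61.8 and those without it 76.4. Across the 420 peaks the Spearman correlation of signal with GC content was 0.23, so strength, GC content and these words moved together, and their separate parts were not tested.

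The peaks lay in sequence with few other copies in the genome. In a BLAST search of the same windows, 18 of the 420 (4.29%, exact 95% interval 2.56% to 6.69%) had at least 1 other match of 100 bp or more at 80% identity or more, against 36 of 1164 promoter peaks (3.09%, 2.18% to 4.26%) and 711 of 2288 tiled windows (31.1%), every 50th window of the tiling. Only 5 of the 420 windows had 10 or more other copies, and the most, 57, belonged to the peak between eel-1 and ivph-3 (pooled signal 183.9). The share of the window in lower case in the RefSeq sequence, which marks repeats and simple sequence, had a median of 18.4% at these peaks and 37.8% in tiled windows. How reads from repeated sequence were treated is not stated, and the part of that treatment in the low share of copies was not tested.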

How the data were processed

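The deposited files were peak lists of the ce11 build from 2 replicates, one list per replicate, one from the pooled alignments and the reproducible set by irreproducible discovery rate (IDR), per the file headers and README texts. The signal of each peak is the authors' score on a scale that is not stated, ranked only within a list, and the deposited −log10 q-value served to find calls with q-values below 0.05. The sources used here do not give the caller, the aligner, the IDR threshold or the read depth, so precision is limited by peak counts. Lists in the ce10 build were not used.

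Genes came from Ensembl release 115 (WBcel235), with 29304 distinct 5' ends of protein-coding transcripts, and sequence from RefSeq. A summit is the peak start plus its offset. Replicate calls were matched within 100 bp. Shares have exact Clopper-Pearson 95% intervals and medians exact order-statistic intervals, and no test was made, because there is 1 group. Words were counted in windows of 100 bp to each side of the summit. Members, gene lists, words and rules were chosen with earlier results of these data known, and the word AGACGCAG and 3 further settings were chosen after seeing the data. Genes were named by rule: flanks of the 12 strongest peaks, the strongest of each arm and centre, those near microRNAs or at the distance limit, and the 3 strongest per family. Intervals with 3 peaks or more, lincRNA and ncRNA names, eel-1, ivph-3, lin-9, ceh-58 and C03B8.3 with ncl-1 were named outside that rule, after their values were seen. Functions were checked on simulated data. Python 3.11.15, numpy 2.4.6, scipy 1.17.1, pandas 2.3.3 and BLAST 2.17.0 were used. Alternatives were distance limits of 250 and 1000 bp, peaks above the median signal, each replicate alone, other gene spans left out, other matching distances, arm limits and windows. One interval between genes is not reported here.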

Additional observations from a re-analysis of the deposited data

How the results depend on the processing

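Of 106 recalculations of the 11 main results, 90 stayed within the interval of the reported value, or within 1.5 times the reported number. These counts include the 3 further settings, which kept most or all of the peaks and so could move little. Taking 5' ends of all transcripts of coding genes gave the same 420 peaks. Leaving out peaks near lin-13 kept 417, and requiring a call in both replicates kept 381. With a distance limit of 250 bp in place of 500 bp the number of peaks was 681, their median percentile 48.7%, the convergent share 3.96% and the GA repeat share 17.2%. Among peaks above the median signal there were 184, with calls in both replicates for 96.2% and the CG word in 33.2%. The share called in both replicates was 67.1% with matching within 50 bp and 97.6% within 200 bp. The arm share was 51.4% with a centre of 40% and 35.7% with a centre of 60%, while the ratio of arm to centre density, 0.713 as reported, ran from 0.617 to 0.827 over all settings. The upper value, like 0.804 for peaks above the median signal, has an interval that includes equal densities. Leaving out summits in other annotated genes gave an ncRNA share of 10.4%, since summits inside such genes are left out by construction. In windows of 50 bp to each side the GA repeat was in 12.1% and the CG word in 15.2%, against 0.884% and 0.662% of tiled windows, and with 150 bp to each side the GA repeat was in 29.8%, against 2.59%.

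Taking the top 2333 calls of 1 replicate gave these ranges over the 2 replicates: 436 to 440 peaks, median percentile 41.1 to 46.4%, arm share 43.4 to 43.4%, density ratio 0.686 to 0.688, convergent share 6.14 to 7.11%, GA-repeat share 18.8 to 24.3%, CG word share 22.2 to 23.6%, ncRNA share 15.8 to 18.2%, pseudogene share 2.50 to 2.52% and chemoreceptor share 3.18 to 3.21%. Of 250 recalculations for single words, gene kinds and families, 224 stayed within the interval, again counting the settings that kept most or all of the peaks. No paired analysis was possible because there is 1 group. Read depth is unknown, which limits what can be said of peaks without a call in 1 replicate.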
